A study of Mus musculus with 14 samples.

Results

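The proteasome is the particle that degrades proteins marked with ubiquitin, and its genes were followed through 7 groups of mouse cells and embryos. They were taken by symbol: all rows whose name begins with Psm, a letter from a to g and a number, with rows of the same symbol summed. The rule matched 49 of the 23234 symbols. One of them, Psmc3ip, encodes a factor of meiotic recombination and not a part of the proteasome, which left 48 genes: 8 of the alpha ring, 7 of the beta ring, 4 inducible beta subunits, 6 ATPases, 3 scaffold and ubiquitin-receptor subunits of the base, 8 lid subunits, 7 assembly factors, and 5 activators and inhibitors. Psmc3ip stood at 103 FPKM in IVF 2-cell embryos, 28.0 FPKM in SCNT 2-cell embryos and 114 FPKM in those with Kdm4d, and is not considered further.

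RNA was sequenced from cumulus cells, which surround the oocyte and served as nuclear donors, and from embryos made by in vitro fertilisation (IVF) or by somatic cell nuclear transfer (SCNT, the nucleus of a body cell placed in an oocyte without its own). Each of the 7 groups had 2 libraries. They were the cumulus cells, embryos of both kinds at the 1-cell and the 2-cell stage, and 2 further groups of SCNT embryos at the 2-cell stage, which overexpressed Kdm4d, an eraser of methylation at lysine 9 of histone H3, or a mutant of it. A cumulus library came from about 1000 cells and an embryo library from a pool of 25 to 40 embryos. The donors are labelled (C57BL/6J x CAST/EiJ) F1, and all SCNT groups had B6D2F1 oocytes, whereas IVF embryos came from a C57BL/6J oocyte and CAST/EiJ sperm. Strain and way of making the embryo therefore cannot be told apart. For the cumulus cells, BDF1 females are named in the growth protocol, in conflict with their strain label. The sources used here give neither the mutation, the way of overexpression nor the age of the animals. Nothing says that the 2 libraries of a group were separate experiments, so the p-values reflect no more than how far these libraries differ.

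The library labels were checked on Kdm4d itself, which averaged 5567 FPKM in the Kdm4d group (8879 and 2255 FPKM), 503 FPKM with the mutant (723 and 283 FPKM) and at most 0.587 FPKM in every other group. The 15 cumulus and granulosa markers summed to 26829 and 20441 FPKM in cumulus cells and to at most 205 FPKM in any embryo library. Depth relative to the first IVF 1-cell library was 0.416 to 0.509 in the 4 libraries with Kdm4d or its mutant, 0.586 to 0.590 in cumulus cells and 0.779 or more in the others. The robust standard deviation between replicates was 0.367 and 0.372 log2 units in the Kdm4d and mutant groups, against 0.0919 to 0.185 in the other 5 groups. The summed FPKM was lowest in SCNT 2-cell embryos (210260 and 208781) and ran from 256849 to 350382 in the other libraries, so that results at the 2-cell stage are also given after scaling all libraries to equal sums.

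The core particle of the proteasome is a stack of rings: outer rings of alpha subunits, which gate the entrance, and inner rings of beta subunits, of which Psmb5, Psmb6 and Psmb7 carry the protease sites. A regulatory particle caps it, with a base that holds ubiquitin receptors and the ATPases that unfold the substrate, and a lid that removes ubiquitin. In immune cells, and in other cells under interferon, the inducible subunits Psmb8, Psmb9 and Psmb10 take the places of Psmb5, Psmb6 and Psmb7, and the cap made of Psme1 and Psme2 (PA28 alpha and beta) favours the release of peptides for antigen presentation. An embryo begins with proteasomes and messages stored in the oocyte, and in the mouse the main activation of its own genome falls at the 2-cell stage.

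RefSeq promoters were matched to 40 of the 48 genes (build GRCm38.p6). The 250 bases before the start were searched on both strands for TGACNNNGC, a reduced form of the antioxidant response element bound by Nfe2l1 and Nfe2l2, factors known to drive proteasome genes, and for CCAAT, the box bound by NF-Y. TGACNNNGC was in 5 of 40 promoters (12.5%, against 11.5% of 27025 genes): those of Psmb5, Psmb6, Psmc6, Psmd12 and Psmd9. CCAAT was in 14 of 40 (35%, against 37.5%). After the expression values had been seen, 2 reduced forms of elements read by interferon-activated factors, GAAA repeated after a gap of 2 bases and TTCNNNGAA, were searched as well and were found in 3 of 40 (7.5%, against 3.46%) and 2 of 40 promoters (5%, against 8.13%). The promoters of 4 genes are shown because these genes carry the differences between SCNT and IVF 2-cell embryos described further on: Psmb5, the standard protease subunit that was lower, at chr14:54617996-54618245 on the minus strand, and Psma7 (chr2:180042465-180042714, minus strand), Psmb9 (chr17:34187331-34187580, minus strand) and Psme1 (chr14:55578244-55578493, plus strand), which were higher. Capitals mark TGACNNNGC in Psmb5, CCAAT in Psma7 and CCAAT on the opposite strand in Psmb9, and none of these matches overlapped another motif. Psme1 held none of the 4 motifs in this window.
Psmb5: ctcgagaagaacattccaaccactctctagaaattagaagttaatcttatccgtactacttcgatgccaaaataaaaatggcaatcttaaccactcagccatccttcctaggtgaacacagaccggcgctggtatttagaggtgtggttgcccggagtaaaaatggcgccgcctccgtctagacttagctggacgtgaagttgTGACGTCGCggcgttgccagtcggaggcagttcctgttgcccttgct
Psma7: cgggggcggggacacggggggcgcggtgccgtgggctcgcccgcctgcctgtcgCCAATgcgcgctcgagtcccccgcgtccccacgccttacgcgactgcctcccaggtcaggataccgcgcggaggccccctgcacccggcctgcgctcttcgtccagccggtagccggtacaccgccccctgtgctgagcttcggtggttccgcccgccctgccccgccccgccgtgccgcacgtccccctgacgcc
Psmb9: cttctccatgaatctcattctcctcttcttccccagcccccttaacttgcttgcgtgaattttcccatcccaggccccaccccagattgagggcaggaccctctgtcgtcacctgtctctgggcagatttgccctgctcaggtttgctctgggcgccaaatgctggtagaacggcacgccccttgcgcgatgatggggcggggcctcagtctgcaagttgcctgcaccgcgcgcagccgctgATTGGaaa
Psme1: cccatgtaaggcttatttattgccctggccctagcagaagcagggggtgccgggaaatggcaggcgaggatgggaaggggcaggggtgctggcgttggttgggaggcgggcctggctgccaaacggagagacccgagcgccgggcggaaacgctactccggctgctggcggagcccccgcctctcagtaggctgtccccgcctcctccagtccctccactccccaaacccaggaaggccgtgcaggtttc
A match is a description of letters, not evidence of binding.

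Expression is given in FPKM, fragments scaled to the length of the transcript and to the number of mapped fragments. Differences were tested on log2(FPKM + 1) with limma over the 13693 genes that reached 1 FPKM in at least 2 libraries, with p-values adjusted by Benjamini and Hochberg over all of them and a threshold of 0.05. A difference on this scale understates the change of genes with low values. Genes named for the largest differences between groups were picked among called genes without overlap between libraries. Their lack of overlap is therefore no separate support. Of the 48 genes, 47 passed that filter. Psmb11, the beta subunit of the thymus, did not: its highest value was 0.293 FPKM. Psma8, the alpha subunit of the testis, reached 1 FPKM only in the cumulus libraries (1.28 and 1.75 FPKM). In pooled material, fewer cells expressing a gene and less RNA per cell cannot be told apart.

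**Figure D1:**
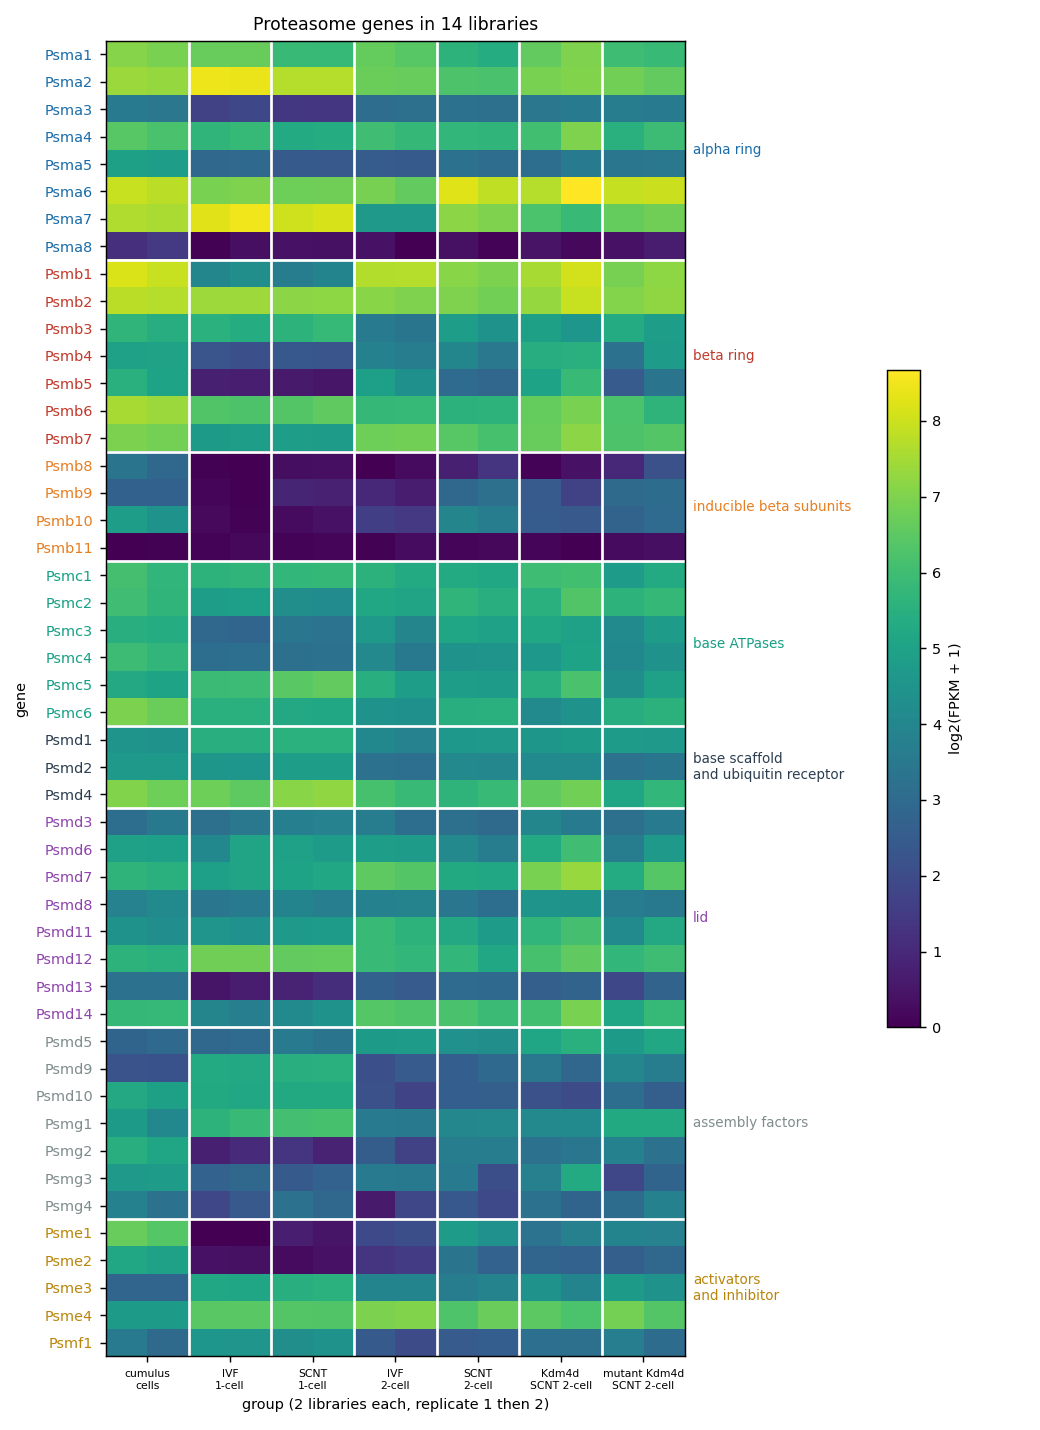
Level of each of the 48 proteasome genes (vertical axis, grouped and coloured by role) in each of the 14 libraries (horizontal axis, 2 per group), as log2(FPKM + 1) in colour. Psmb8, Psmb9, Psmb10, Psme1 and Psme2 are dark in 1-cell embryos, where Psme1 is listed at 0 in both IVF libraries, and brighter in cumulus cells.

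The 1-cell embryo was supplied very unevenly with messages for proteasome subunits. All 48 genes together held 0.618% ± 0.00990 (SD, n = 2) of all FPKM in IVF 1-cell embryos, 0.649% ± 0.0304 in IVF 2-cell embryos, 0.837% ± 0.0643 in SCNT 2-cell embryos, 0.802% ± 0.156 with Kdm4d, 0.664% ± 0.129 with the mutant and 0.917% ± 0.0382 in cumulus cells. Among the 14 standard core subunits other than Psma8, the highest exceeded the lowest 489-fold and 544-fold in the IVF 1-cell libraries, compared with 24.8-fold and 25.9-fold in cumulus cells. Psmb5, the chymotrypsin-like protease subunit, was the lowest core subunit in all 4 libraries of 1-cell embryos, at 0.429 to 0.714 FPKM. The alpha subunits Psma7 (310 and 355 FPKM) and Psma2 (349 and 339 FPKM) were the highest in IVF 1-cell embryos. Summed per role, the alpha ring averaged 963 FPKM and the beta ring 334 FPKM there, and the order was the other way round in IVF 2-cell embryos, with 398 FPKM for the alpha ring and 549 FPKM for the beta ring.

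Some of these levels are less certain than others. For 12 genes, over 15% of the 50-base stretches of the transcript also occur in transcripts of other genes: Psme2 (59.3%), Psmb5 (57.1%), Psmb3 (55.8%), Psma5 (55.4%), Psma4, Psmb7, Psmd2, Psmg3, Psma3, Psmd11, Psmc1 and Psmd13. The sources used here do not say how the authors' counting treated such reads, and the values of these genes are to be read with that limit. Psmd1 and Psma3 overlap other genes by 12934 and 3309 bases (Psma4, Psmb5 and Psme1 by at most 109), and strand is not stated for the counting. In the build used by the authors (mm9), the genes named most often lie at chr14:55232957-55236832 (Psmb5), chr2:179771081-179777107 (Psma7), chr8:110104280-110112382 (Psmd7), chr8:108459628-108462292 (Psmb10), chr17:34319044-34324275 (Psmb9) and chr17:34335140-34338399 (Psmb8), with Psme1 and Psme2 close together at chr14:56197331-56200364 and chr14:56206277-56209938.

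Cumulus cells, the donors of the nuclei, held more Psme1, Psme2, Psmb8, Psmb9, Psmb10 and Psmb5 than fertilised eggs and less Psmd9 and Psme3. Compared with IVF 1-cell embryos, 24 of the 47 genes were higher (41.9% of all tested genes were) and 10 were lower (34.9%), with a median difference of 0.59 log2 units against 0.13 over all genes. Most genes of any kind differed here, so the number called is not particular to the proteasome. Among the 24 higher genes is Psma8, which passed the filter only through the cumulus libraries. The higher genes also included all 3 tested inducible subunits, PA28 and 5 of 7 beta-ring genes. The 10 lower ones included the activators Psme3 and Psme4, the inhibitor Psmf1 and the assembly factors Psmd9 and Psmg1. Psme1 stood at 100 and 82.3 FPKM in cumulus cells and was listed at 0 in both IVF 1-cell libraries (difference 6.52, SE 0.20, adjusted p = 5.6e-10). Psmb10 reached 27.6 and 20.9 FPKM against 0.172 and 0.0371 FPKM (4.51, SE 0.19, adjusted p = 4.5e-09). Psmb5 reached 44.1 and 31.7 FPKM against 0.714 and 0.652 FPKM (4.51, SE 0.33, adjusted p = 3.1e-07). In each case the cumulus libraries lay above the embryo libraries, as the rule for the largest differences required. The opposite held for Psmd9, an assembly chaperone of the base, at 3.63 and 3.59 FPKM in cumulus cells and 38.6 and 36.7 FPKM in the IVF 1-cell embryo (-3.07, SE 0.22, adjusted p = 3.0e-07), and for Psme3 (PA28 gamma, the nuclear activator), at 6.18 and 6.19 FPKM against 34.7 and 33.1 FPKM (-2.28, SE 0.18, adjusted p = 5.8e-07).

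From the 1-cell to the 2-cell stage, Psmb5, Psmb1 and Psmd14 rose in fertilised embryos and Psma7, Psmd9, Psmd10 and Psmf1 fell. In IVF embryos 18 of 47 genes rose (30.2% of all tested genes did) and 16 fell (36.4%), with a median difference of 0.09 against -0.04 over all genes, so the counts lie close to the background on either side. By role, 4 of 7 beta-ring genes rose and 2 fell (Psmb3 and Psmb6), 4 of 8 lid genes rose and 1 fell (Psmd12), and 2 of 6 ATPases rose and 2 fell. Of the 8 alpha-ring genes 1 rose (Psma3) and 3 fell, of the 7 assembly factors 2 rose (Psmd5 and Psmg2) and 3 fell, and all 3 base scaffold and receptor genes fell. With quantile normalization 18 of the 47 genes rose and 14 fell, and with equal sums 20 rose and 12 fell. The falls of Psmb6 and of Psmd4, the ubiquitin receptor of the base, were called under neither scaling. That of Psma5 was not called with equal sums. Psmb5 rose from 0.714 and 0.652 FPKM to 28.6 and 19.4 FPKM (3.87, SE 0.33, adjusted p = 2.3e-06), and Psmb1, a non-catalytic beta subunit, from 14.8 and 18.3 to 203 and 208 FPKM (3.56, SE 0.20, adjusted p = 1.5e-07). The deubiquitinase of the lid, Psmd14, rose from 14.4 and 12.2 to 82.9 and 77.2 FPKM (2.50, SE 0.29, adjusted p = 2.2e-05). None of these 3 genes had overlapping libraries, which the rule that picked them required.

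Among the proteasome genes, the largest fall in fertilised embryos was that of Psma7, an alpha subunit, from 310 and 355 FPKM to 24.1 and 25.1 FPKM (-3.70, SE 0.15, adjusted p = 1.8e-08). Psmd10, known as gankyrin and a chaperone of base assembly, fell from 37.9 and 34.6 to 3.48 and 2.44 FPKM (-3.24, SE 0.19, adjusted p = 1.9e-07), and Psmd9 from 38.6 and 36.7 to 3.31 and 4.56 FPKM (-2.98, SE 0.22, adjusted p = 9.1e-07). Psmf1, an inhibitor of the core particle, fell from 22.7 and 22.1 to 4.55 and 2.99 FPKM (-2.31, SE 0.24, adjusted p = 1.1e-05). The summed level of 12 oocyte markers fell over the same interval, from 17727 and 17711 FPKM to 7659 and 7978 FPKM, and its part in these changes was not tested. PA28 and 2 of the 3 tested inducible subunits rose from almost nothing to low levels: Psme1 was at 2.81 and 3.2 FPKM, Psme2 at 1.51 and 1.83 FPKM and Psmb10 at 2.04 and 1.72 FPKM in IVF 2-cell embryos, all 3 of them called. Psmb9 stood at 0.979 and 0.615 FPKM, and its rise (0.77, adjusted p = 0.014) lost the call without IVF 1-cell replicate 2 (adjusted p = 0.074) or IVF 2-cell replicate 1 (adjusted p = 0.096). Psmb8 was not called (0.018 FPKM at the 1-cell and 0.0909 FPKM at the 2-cell stage on average, adjusted p = 0.84).

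In nuclear transfer embryos PA28, Psmb10, Psmb1 and Psmb5 rose and the assembly factors Psmd9, Psmd10 and Psmg1 fell. Between SCNT 1-cell and 2-cell embryos, 18 genes rose (35.1% of all tested genes) and 18 fell (30.9%), and after scaling to equal sums the counts were 23 and 10, while the share of higher genes among all calls moved from 53.2% to 70.3%. The stage comparisons share no library. Of the 18 proteasome genes rising with IVF, 15 did so in SCNT embryos (75.1% of the 4132 genes of that kind), and of the 16 that fell, 14 also fell (73% of 4980), shares close to those over all genes. Psma5 fell in IVF embryos, from 6.71 and 6.77 to 4.70 and 4.48 FPKM, and rose in SCNT embryos, from 4.50 and 4.39 to 8.63 and 7.65 FPKM. Its fall in IVF embryos was not called with equal sums. The assembly factors Psmd9 (from 42.8 and 44.8 to 5.10 and 6.74 FPKM), Psmd10 (from 37.4 in both to 5.09 and 5.21 FPKM) and Psmg1 (from 66.4 and 69.3 to 15.0 and 15.8 FPKM) fell in SCNT embryos too (-2.71, -2.64 and -2.07, largest adjusted p = 6.4e-06).

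**Figure D2:**
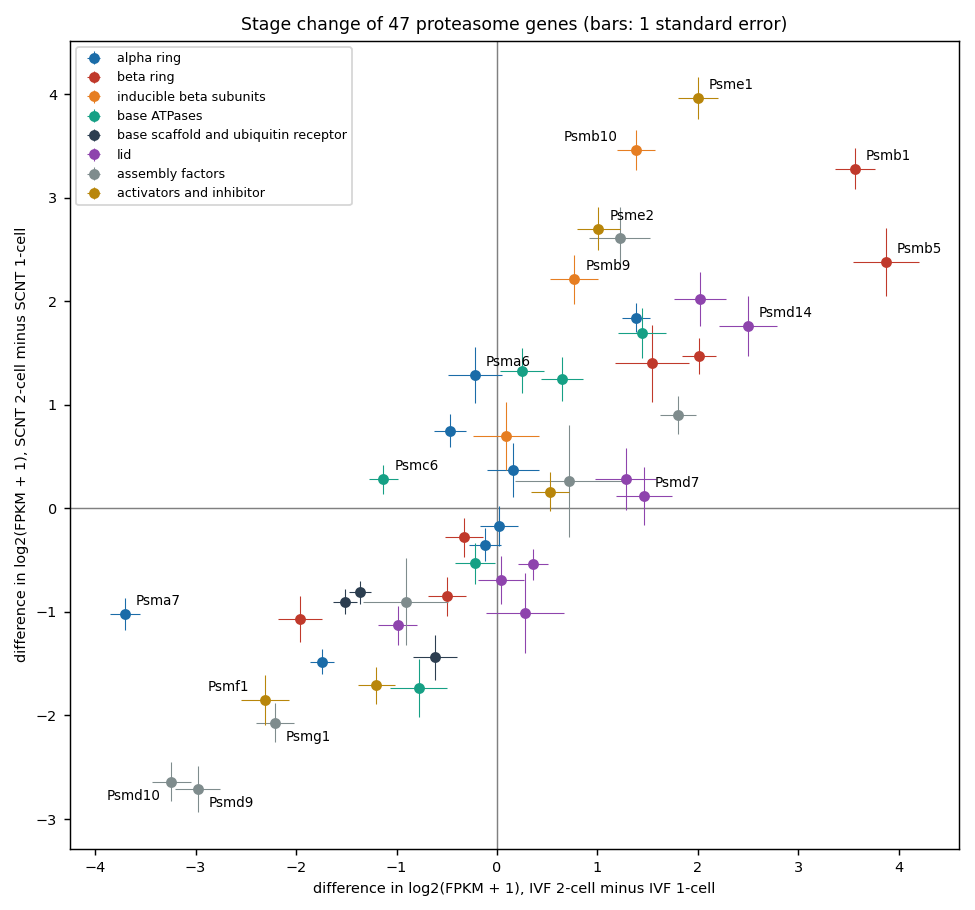
Change from the 1-cell to the 2-cell stage in IVF embryos (horizontal axis) and SCNT embryos (vertical axis) for 47 proteasome genes, both as differences in log2(FPKM + 1) with bars of 1 standard error and colours by role. On this scale Psme1, Psmb10, Psme2 and Psmb9 rose further in SCNT embryos, Psma7 fell less there (-1.02 against -3.70), and Psmb5 rose less (2.38 against 3.87).

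The stage change differed between SCNT and IVF embryos, by the interaction term, in 16 of 47 genes (27.8% of all tested genes), 12 with a higher change in SCNT (15.7% of all tested genes; 7 without IVF 1-cell replicate 2 or IVF 2-cell replicate 2) and 4 with a lower one (12.1%). The sizes were 2.68 for Psma7 (SE 0.21, adjusted p = 4.2e-05), 2.08 for Psmb10 (SE 0.27, adjusted p = 0.00053), 1.96 for Psme1 (SE 0.28, adjusted p = 0.001) and 1.68 for Psme2 (SE 0.29, adjusted p = 0.0024). Psme1 and Psmb9 start from values at or near 0, and with a pseudocount of 0.1 their interactions shrank to 0.24 and 0.38 and were not called (adjusted p = 0.66 and 0.65). On the lower side were Psmb5 (-1.49, SE 0.47, adjusted p = 0.037) and the lid genes Psmd7 (-1.34, SE 0.39, adjusted p = 0.028) and Psmd8 (-0.90, SE 0.22, adjusted p = 0.013), with the base chaperone Psmd5 (-0.90, SE 0.26, adjusted p = 0.026). These 4 calls were fragile: after scaling to equal sums none remained (adjusted p = 0.078, 0.08, 0.053 and 0.13 in that order), Psmd7 and Psmd5 also lost theirs whichever single library of the 4 groups was left out, and Psmb5 without any of them but IVF 2-cell replicate 2 (adjusted p from 0.074 to 0.13). The call of Psmd8 was lost without IVF 1-cell replicate 1 or SCNT 1-cell replicate 1 (adjusted p = 0.058 and 0.059). That of Psmb5 was lost as well with a pseudocount of 0.1 (adjusted p = 0.074), without the filter (0.07) and with the replicate block (just above the threshold, 0.05 when rounded).

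At the 1-cell stage 2 alpha-ring genes were lower in SCNT than in IVF embryos (0.803% of all tested genes were) and 0 genes were called higher (1.06%). Psma1 stood at 58.4 and 54.7 FPKM in SCNT and 99.9 and 100 FPKM in IVF 1-cell embryos (-0.81, SE 0.16, adjusted p = 0.03), and Psma2 at 210 and 208 FPKM against 349 and 339 FPKM (-0.72, SE 0.12, adjusted p = 0.017). Neither call remained when any single library of the comparison was left out (adjusted p from 0.15 to 0.25). On the other hand, a fit to these 4 libraries alone, which vary less than the Kdm4d libraries, called 8 proteasome genes higher and 9 lower. A limma fit with a variance for each group called 13 and 8. The counts over all tested genes were 1309 and 986 in the former fit and 2434 and 1496 in the latter. At an unadjusted threshold of 0.05 the fit to all libraries gave 5 higher and 6 lower proteasome genes. The 0 higher calls therefore do not show equal levels.

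On FPKM as deposited, single proteasome genes differed between SCNT and IVF 2-cell embryos in both directions. Their numbers lay near the shares over all tested genes. In SCNT 2-cell embryos, PA28, the inducible subunits, some ATPases and Psma7 were higher, and Psmb5, Psmd7, Psma1, Psmb1, Psmd8, Psmb7 and Psma2 were lower, of which Psmb5, Psmd7 and Psma1 were called under every scaling. In all, 16 of 47 genes were higher (29.3% of all tested genes) and 7 lower (16.1%), with a median of 0.01 against 0.22 over all genes. After scaling to equal sums, which moved the median of all genes to 0.463 and the share of higher genes among all calls from 64.6% to 80%, 22 genes were higher and 3 lower. Without IVF 2-cell replicate 1, IVF 2-cell replicate 2 or SCNT 2-cell replicate 2 there were 4 lower genes each. With quantile normalization (median of all genes 0.018, 51.2% of calls higher) 16 were higher and 4 lower. By role in the fit on FPKM as deposited, 3 of 3 inducible subunits, 3 of 6 ATPases and 2 of 3 base scaffold and receptor genes were higher and none of these lower, and that held under both other scalings apart from Psmb8, which was not called with quantile normalization. In the lid 2 of 8 genes were lower and none higher (1 lower with equal sums), and in the beta ring 3 of 7 were lower and 1 higher (1 and 1 under both other scalings).

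Psme1 stood at 26.5 and 19.8 FPKM in SCNT 2-cell embryos and at 2.81 and 3.2 FPKM in IVF 2-cell embryos, 7.70-fold higher (23.1 ± 4.73 against 3.01 ± 0.282 FPKM, SD, n = 2; log2 difference 2.58, SE 0.20, adjusted p = 9.2e-06 by limma). Its partner Psme2 stood at 9.0 and 5.69 FPKM against 1.51 and 1.83 FPKM (1.62, SE 0.21, adjusted p = 0.00017). The 2 genes encode the subunits of 1 ring, and for both every SCNT library lay above every IVF library. Psme3 and Psme4, the other activators, were not called (-0.15 and -0.50, adjusted p = 0.54 and 0.051).

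Among the inducible subunits, Psmb10 stood at 14.5 and 11.5 FPKM in SCNT against 2.04 and 1.72 FPKM in IVF 2-cell embryos (2.28, SE 0.19, adjusted p = 1.4e-05). Psmb9 stood at 6.37 and 8.27 FPKM against 0.979 and 0.615 FPKM (2.21, SE 0.24, adjusted p = 6.2e-05), and both SCNT libraries lay above the cumulus libraries (5.48 and 5.52 FPKM). For Psmb8, at 0.710 and 1.49 FPKM against 0 and 0.182 FPKM, the call (0.92, SE 0.33, adjusted p = 0.04) was lost without IVF 2-cell replicate 1 (adjusted p = 0.17), IVF 2-cell replicate 2 (0.085) or SCNT 2-cell replicate 2 (0.23). Set against its standard counterpart, Psmb10 made up 14.7% and 14.1% of Psmb7 plus Psmb10 in SCNT 2-cell embryos, 1.87% and 1.5% in IVF 2-cell embryos and 18.3% and 15.3% in cumulus cells. Psmb9 made up 11.9% and 14.6% of Psmb6 plus Psmb9, 1.80% and 1.11%, and 2.87% and 3.26% in the same groups. The SCNT embryos thus stood with the cumulus cells for the share of Psmb10 and above them for that of Psmb9. These shares carry no test.

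Other transcripts of antigen processing and of possible stray cells were read beside these genes. Of 10 tested antigen-processing genes, 4 were higher in SCNT than in IVF 2-cell embryos and none lower (29.3% and 16.1% of all tested genes), among them Tap1, the peptide transporter whose gene lies next to Psmb9 (0.744 against 0.0566 FPKM on average, 0.72, SE 0.22, adjusted p = 0.023). Reads of Psmb9 and Tap1 are not fully separate, since 12.5% of the stretches of Psmb9 occur in Tap1. The 15 cumulus and granulosa markers summed to 72.0 and 67.4 FPKM in SCNT and 117 and 114 FPKM in IVF 2-cell embryos, a difference carried mostly by Gja1 (35.9 and 34.2 against 63.9 and 53.9 FPKM) and Nr5a2 (12.6 and 10.7 against 32.4 and 26.5 FPKM). Of these 15 markers 3 were called lower, 1, Star, was higher and 11 were not called. The 12 immune markers summed to 17.4 and 10.6 FPKM in SCNT and 5.78 and 1.98 FPKM in IVF 2-cell embryos, with 3 of 6 tested markers called higher. Of the endothelial markers 2 of 4 tested were higher (the 5 listed summed to 7.12 and 5.82 against 2.12 and 1.98 FPKM), and so were 2 of 4 tested oviduct epithelium markers, Krt8 and Krt18, although the sums of that list overlapped (73.2 and 65.8 against 63.6 and 72.4 FPKM). Of the 5 red blood cell markers only Hba-a2 was tested, at 13.4 and 18.8 against 2.1 and 2.12 FPKM, without a call (adjusted p = 0.063). The part of these markers in the result was not tested. Of the 24 proteasome genes higher in cumulus cells than in IVF 1-cell embryos, 11 were higher in SCNT than in IVF 2-cell embryos (33% of the 5744 such genes were) and 4 lower (13.8%).

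Of the standard particle, Psma7 stood at 142 and 127 FPKM in SCNT against 24.1 and 25.1 FPKM in IVF 2-cell embryos, 5.47-fold higher (2.40, SE 0.15, adjusted p = 2.5e-06), without overlap. Psmb5, whose place Psmb8 can take, was the reverse, at 7.14 and 6.34 FPKM against 28.6 and 19.4 FPKM (-1.67, SE 0.33, adjusted p = 0.0024). The lid subunit Psmd7 stood at 37.8 and 36.1 FPKM against 91.7 and 80.7 FPKM (-1.20, SE 0.28, adjusted p = 0.0053). Both SCNT libraries were below both IVF libraries for Psmb5 and for Psmd7, and both calls held under every scaling tried. The rule that picked Psma7, Psmb5 and Psmd7 required a lack of overlap. Psma1, at 47.6 and 40.6 FPKM against 98.9 and 85.4 FPKM (-1.05, SE 0.16, adjusted p = 0.00047), was also lower at the 1-cell stage. Psmb1, at 141 and 124 FPKM against 203 and 208 FPKM (-0.64, SE 0.20, adjusted p = 0.027), lost its call with quantile normalization (-0.03), with equal sums (-0.28) and without any single library of the comparison. The 9 standard lid and ATPase genes that were not called ran from -0.97 for Psmd6 to 0.45 for Psmc2.

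**Figure D3:**
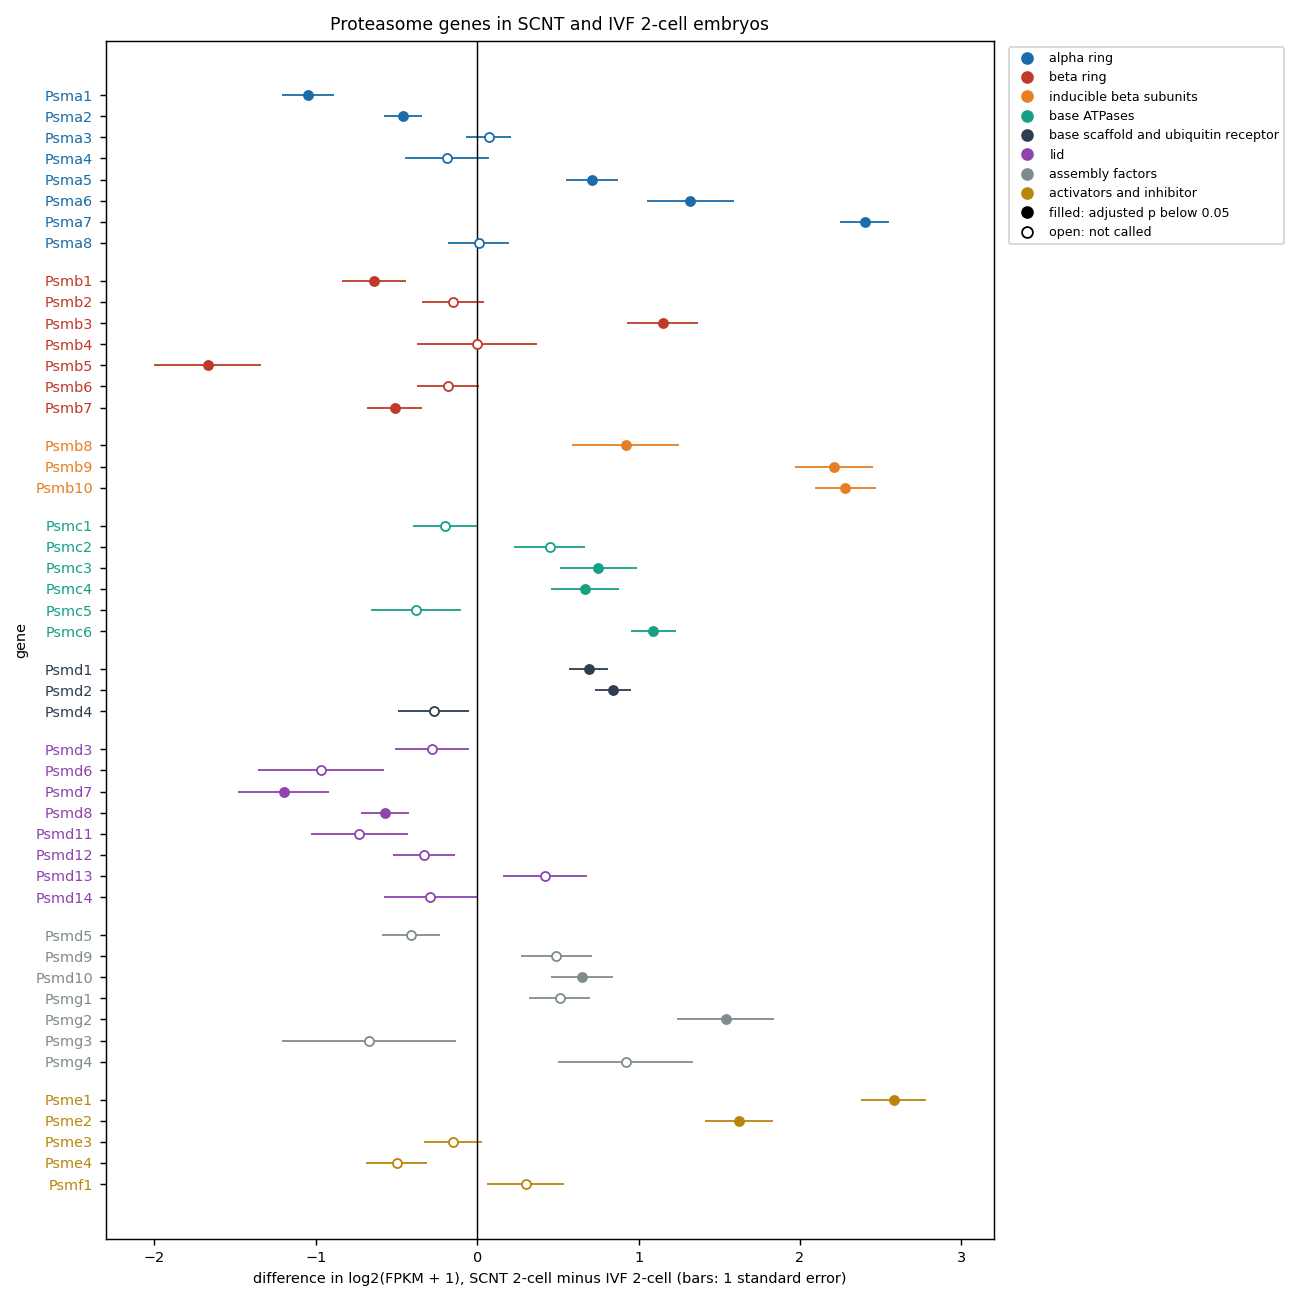
Difference between SCNT and IVF 2-cell embryos (horizontal axis, log2(FPKM + 1), bars of 1 standard error) for 47 proteasome genes (vertical axis) grouped by role, with filled points for genes past the adjusted threshold. All 3 tested inducible subunits, Psme1 and Psme2 lie to the right, and the only called lid genes, Psmd7 and Psmd8, lie to the left.

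With Kdm4d, SCNT 2-cell embryos had higher levels of Psmb5, Psmb4, Psmb6, Psmd6, Psmd7, Psmd8 and Psma1 and lower levels of Psmb10, Psmb9, Psme1, Psma7 and Psmc6 than SCNT embryos without it, under every scaling tried. In this comparison 20 of 47 genes were higher (20.2% of all tested genes) and 6 lower (18%), with a median of 0.41 against -0.02 over all genes. Of the 31 subunits of the standard core and cap, 18 were higher and 2 lower, including 6 of 7 beta-ring and 6 of 8 lid genes (3 and 3 under both other scalings). The counts depend on the scale: with equal sums 7 of 47 genes were higher and 15 lower, with the median of all genes at -0.415 and the share of higher genes among all calls at 18.5% in place of 52.9%, and with quantile normalization 9 were higher and 8 lower. A fit to these 4 libraries alone called 11 higher and 3 lower (1386 and 975 over all tested genes), and without SCNT 2-cell replicate 2 fewer genes were higher than in the full fit.

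Stage markers moved with the same groups. The 9 markers of the 2-cell stage summed to 3101 and 2970 FPKM in IVF 2-cell, 618 and 553 FPKM in SCNT 2-cell, 2346 and 3758 FPKM in Kdm4d and 274 and 707 FPKM in mutant embryos. The 12 oocyte markers summed to 7659 and 7978, 2671 and 2666, 8175 and 8418, and 8565 and 4710 FPKM in the same groups. SCNT embryos had the lowest sum of oocyte markers, and Kdm4d embryos stood near IVF embryos for the sums of both lists. Gene by gene, 3 of the 12 oocyte markers were higher in SCNT than in IVF 2-cell embryos, 4 were lower and 5 were not called. With Kdm4d, 2 of the 12 oocyte markers were higher than in IVF 2-cell embryos, and 3 of the 9 markers of the 2-cell stage were lower. Their part in the results at the 2-cell stage was not tested.

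Psmb5 stood at 31.8 and 57.1 FPKM with Kdm4d and at 7.14 and 6.34 FPKM without (44.5 ± 17.9 against 6.74 ± 0.566 FPKM, SD, n = 2; 2.50, SE 0.33, adjusted p = 0.00031). Psmd7 stood at 121 and 160 FPKM against 37.8 and 36.1 FPKM (1.88, SE 0.28, adjusted p = 0.00054). The groups did not overlap for either gene, a condition of their being picked, and both calls held under every scaling. Among the other large rises were the lid gene Psmd6, at 38.5 and 63.9 FPKM against 15.9 and 11.5 FPKM (1.80, SE 0.39, adjusted p = 0.0045), and the beta subunit Psmb4, at 40.9 and 44.9 FPKM against 14.9 and 10.1 FPKM (1.72, SE 0.37, adjusted p = 0.0045).

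Psmb10 was lower with Kdm4d, at 4.75 and 4.32 FPKM against 14.5 and 11.5 FPKM (-1.34, SE 0.19, adjusted p = 0.00046), and so was Psma7, at 74.0 and 57.3 FPKM against 142 and 127 FPKM (-1.03, SE 0.15, adjusted p = 0.00051). Psme1 stood at 8.84 and 12.8 FPKM against 26.5 and 19.8 FPKM (-1.04, SE 0.20, adjusted p = 0.0026, and 0.065 in a fit to these 4 libraries). Psmc6, an ATPase, stood at 16.5 and 20.5 FPKM against 42.3 and 44.7 FPKM (-1.20, SE 0.14, adjusted p = 0.00014). For these 4 genes both Kdm4d libraries lay below both libraries without it, as the rule for the largest falls required. Psme2 did not follow Psme1: at 6.08 and 5.66 FPKM against 9.0 and 5.69 FPKM, its libraries overlapped and it was not called (-0.25, SE 0.21, adjusted p = 0.37). For Psmb9, at 4.56 and 2.28 FPKM against 6.37 and 8.27 FPKM, the call (-0.95, SE 0.24, adjusted p = 0.0097) was lost without Kdm4d replicate 2 (adjusted p = 0.056) or SCNT 2-cell replicate 2 (0.072).

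With the mutant Kdm4d, the assembly factors Psmg1, Psmd9 and Psmd5, the inhibitor Psmf1, the activator Psme3 and the alpha subunit Psma2 were higher than in SCNT 2-cell embryos on FPKM as deposited, and Psmb10, Psmd2 and Psme1 were lower. In all, 6 of 47 genes were higher (10.5% of all tested genes) and 3 lower (6.02%), near the background, with a median of 0.13 against 0.01. Psmb5 stood at 4.58 and 9.22 FPKM, around the 7.14 and 6.34 FPKM without it (-0.03, SE 0.33, adjusted p = 0.97). The higher genes were Psmg1 (37.4 and 37.3 FPKM against 15.0 and 15.8 FPKM; 1.23, SE 0.19, adjusted p = 0.0043), Psmd9, Psmf1, Psme3, Psmd5 and Psma2. The first 4 of these, and Psma2, had fallen from the 1-cell to the 2-cell stage in both kinds of embryo, as had 3633 of the 13693 tested genes. The share of such genes among all genes higher with the mutant was not counted. The oocyte markers were higher in both mutant libraries as well, as given above, and 4 of 12 were called. Psmb10 was lower (5.78 and 7.11 against 14.5 and 11.5 FPKM; -0.91, SE 0.19, adjusted p = 0.012), as were Psmd2 and Psme1. These calls rest on the spread shared with the other groups: a limma fit to the 4 libraries alone gave 0 higher and 0 lower (8 and 3 at an unadjusted threshold of 0.05), a fit with a variance for each group 0 and 1 (6 and 3 unadjusted), and scaling to equal sums 2 and 7, with 20.1% of all calls higher in place of 63.5%. Over all tested genes the fit to the 4 libraries called 3 higher and 18 lower, and that with group variances 330 and 96. Leaving out SCNT 2-cell replicate 1 or 2 gave 1 and 3 higher genes, and the lower genes numbered 1 without SCNT 2-cell replicate 1 or mutant replicate 1 and 7 without mutant replicate 2.

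Kdm4d embryos were next compared with those given the mutant, using 4 libraries none of which enters the SCNT against IVF contrast. With Kdm4d 18 of 47 genes were higher (20.7% of all tested genes) and 7 lower (21.6%), with a median of 0.35 against -0.09. Of the 31 standard core and cap subunits 17 were higher and 2 lower. The mutant and Kdm4d libraries vary most between replicates, and the counts were 0 and 0 in a limma fit to these 4 libraries (12 and 4 at an unadjusted threshold of 0.05), 6 and 1 with a variance for each group, and 13 and 12 with equal sums (35.5% of all calls higher in place of 49%). Over all tested genes the fit to these 4 libraries called 0 higher and 5 lower, and that with group variances 1329 and 721. Without Kdm4d replicate 2 there were 8 higher genes, and without mutant replicate 1 there were 11. Psmb5 stood at 31.8 and 57.1 FPKM with Kdm4d against 4.58 and 9.22 FPKM with the mutant (2.53, SE 0.33, adjusted p = 0.00033, and 0.092 in the fit to these 4 libraries). Psmd4, the ubiquitin receptor of the base, stood at 93.7 and 114 FPKM against 33.0 and 52.6 FPKM (1.29, SE 0.22, adjusted p = 0.0013).

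Of the 7 genes that were lower in SCNT than in IVF 2-cell embryos, 6 were higher with Kdm4d than with the mutant: Psma1, Psmb1, Psmb5, Psmb7, Psmd7 and Psmd8. The same was true of 73.4% of the 2201 genes of that kind. Of the 16 higher genes, 5 were lower with Kdm4d (Psma7, Psmb8, Psmb9, Psmc6 and Psmd10), against 46.7% of 4015 genes. Psmb10, Psme1 and Psme2, at 6.44, 13.8 and 5.93 FPKM on average with the mutant and 4.53, 10.8 and 5.87 FPKM with Kdm4d, were not called (adjusted p = 0.096, 0.19 and 1).

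**Figure D4:**
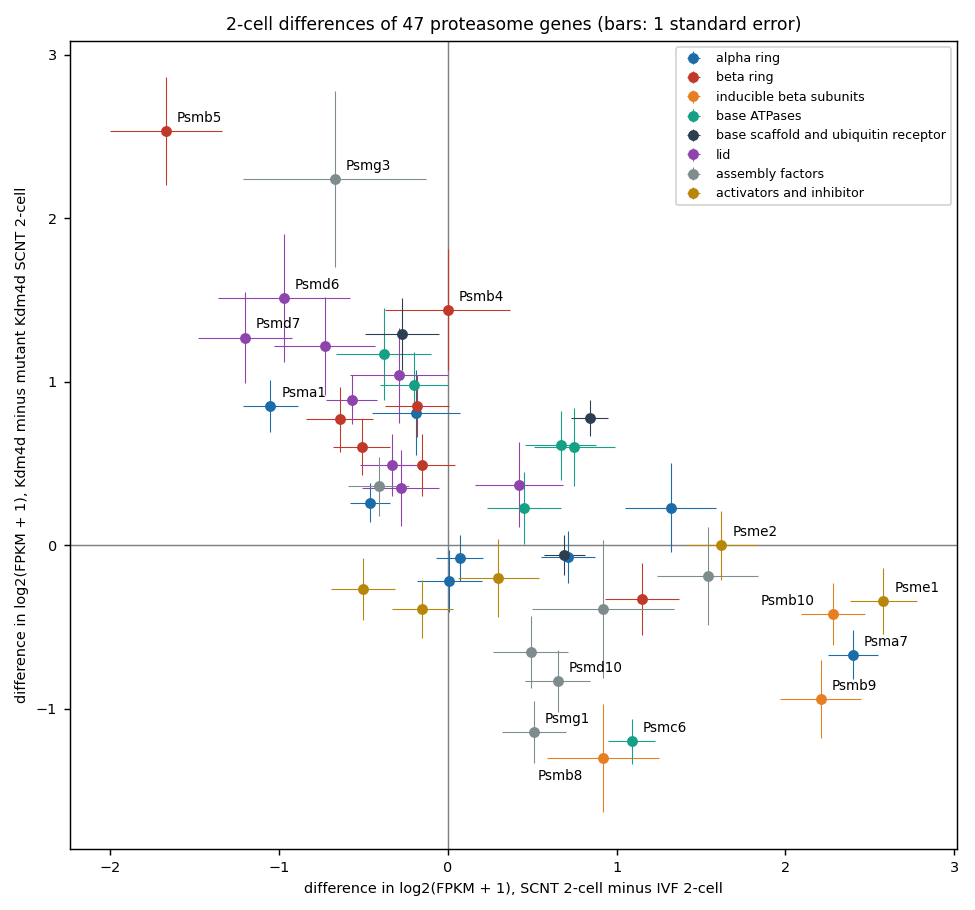
Difference between SCNT and IVF 2-cell embryos (horizontal axis) and between Kdm4d and mutant Kdm4d SCNT 2-cell embryos (vertical axis) for 47 proteasome genes, both in log2(FPKM + 1) with bars of 1 standard error and colours by role. Psmb5 is at the upper left (-1.67 and 2.53) and Psma7 and Psmb9 at the lower right, while Psme2 lies at 1.62 and near 0.

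Compared with IVF 2-cell embryos, those with Kdm4d had 20 of 47 genes higher (15.5% of all tested genes) and 1, Psme4, lower (3.61%), with a median of 0.68 against 0.18. The counts were 13 and 1 with quantile normalization (49.8% of all calls higher in place of 81.1%), 15 and 1 with equal sums (53.8%), 10 higher without IVF 2-cell replicate 2 (Psme4 lost its call there and without IVF 2-cell replicate 1 or Kdm4d replicate 2), and 0 and 0 in a limma fit to these 4 libraries (25 and 1 at an unadjusted threshold of 0.05). Of all tested genes, the limma fit to these 4 libraries called 11 higher and 17 lower. Psmb5 and Psmd7 stood above the IVF level in both Kdm4d libraries but were not called (0.83 and 0.68, adjusted p = 0.11 for each). PA28 and inducible subunits remained above the IVF level in the fit to all libraries: Psme1 by 1.54 (SE 0.20, adjusted p = 0.001), Psme2 by 1.37 (SE 0.21, adjusted p = 0.002), Psmb9 by 1.26 (SE 0.24, adjusted p = 0.0058) and Psmb10 by 0.94 (SE 0.19, adjusted p = 0.0076). None of these 4 calls was kept in the fit to the 4 libraries (adjusted p from 0.09 to 0.14). Those of Psmb9 and Psmb10 were also lost without IVF 2-cell replicate 2 (differences 1.11 and 0.86). With quantile normalization that of Psmb10 was lost too (0.62, adjusted p = 0.056).

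**Figure D5:**
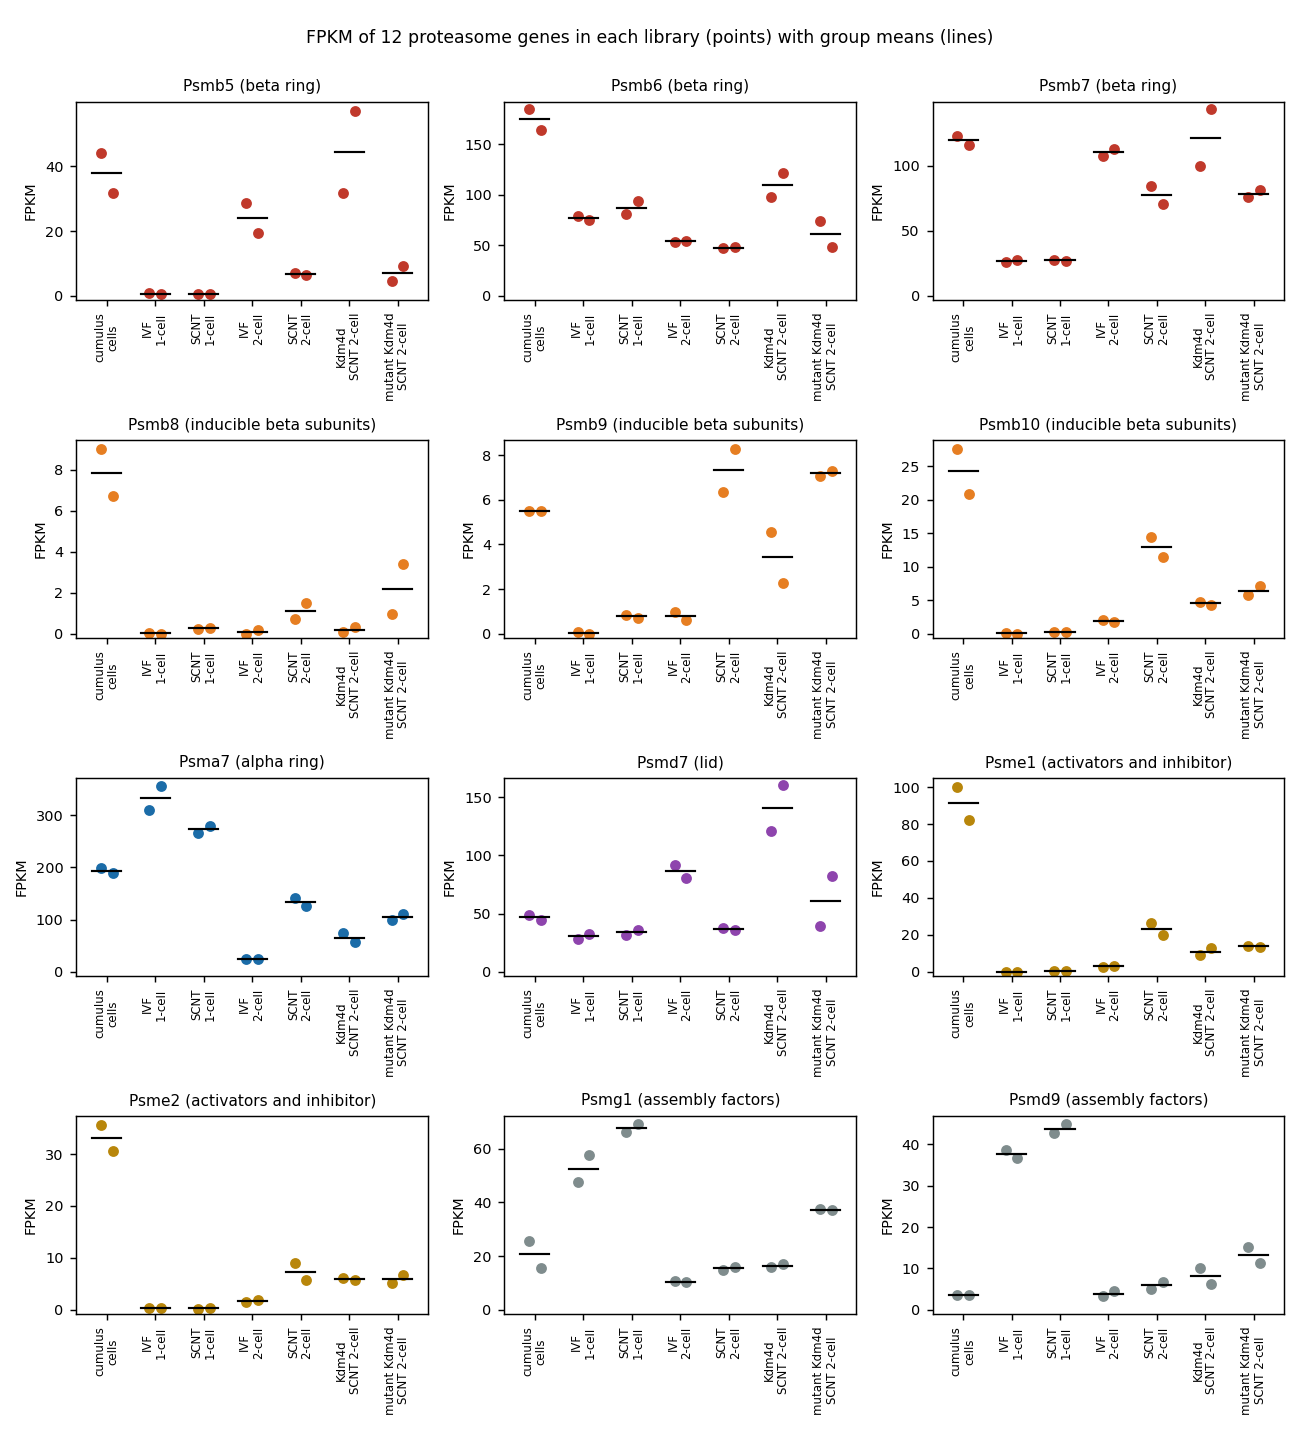
FPKM (vertical axes, each starting at 0) of 12 proteasome genes in every library (points, 2 per group) with the group mean as a line, for the 7 groups on the horizontal axes. Psmb10, Psme1 and Psma7 are higher in SCNT than in IVF 2-cell embryos, and Psmb5 and Psmd7 are lower. The points of the Kdm4d and mutant groups spread most for Psmd7, while other groups spread most for Psma7, Psmb10 and Psme1.

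Genes that work with the proteasome outside the naming rule were read from a list of 32, of which 30 were tested. Between IVF 1-cell and 2-cell embryos 8 rose and 11 fell, near the background of 30.2% and 36.4% of all tested genes. Rps27a, which encodes ubiquitin fused to a ribosomal protein and shares 72.0% of its stretches with other genes, rose from 0.268 and 0.224 to 6.53 and 6.19 FPKM (2.56, SE 0.20, adjusted p = 1.1e-06). Ngly1, the deglycosylase that activates Nfe2l1, fell from 17.2 and 18.3 to 3.06 and 2.75 FPKM (-2.26, SE 0.24, adjusted p = 1.3e-05), and Akirin2, needed for nuclear import of the proteasome, from 234 and 237 to 65.0 and 70.3 FPKM (-1.79, SE 0.28, adjusted p = 0.00021). For all 3 genes the libraries of the 2 stages did not overlap, as the rule that picked them required.

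In SCNT compared with IVF 2-cell embryos, 4 of the 30 partners were higher (29.3% of all tested genes) and 10 lower (16.1%), and with equal sums 10 and 9. Without single libraries 1 to 2 were higher and 7 to 9 lower. The lid subunit Shfm1, also named Sem1, stood at 67.9 and 59.2 FPKM against 237 and 235 FPKM (-1.88, SE 0.29, adjusted p = 0.00051), and the shuttle factor Ubqln2 at 4.72 and 4.82 FPKM against 18.7 and 22.6 FPKM (-1.90, SE 0.18, adjusted p = 3.4e-05). Uchl5, a deubiquitinase of the cap, stood at 9.12 and 10.7 FPKM against 4.03 and 4.14 FPKM (1.09, SE 0.33, adjusted p = 0.022), and Ufd1l, a cofactor of the segregase Vcp, at 15.4 and 13.3 FPKM against 7.30 and 7.77 FPKM (0.84, SE 0.26, adjusted p = 0.023). Shfm1, Ubqln2, Uchl5 and Ufd1l were without overlap between SCNT and IVF libraries, as the rule that picked them required. The calls of Uchl5 and Ufd1l were lost without any single library of the comparison (adjusted p from 0.055 to 0.12). Nfe2l1 and Nfe2l2 themselves were not called between SCNT and IVF 2-cell embryos (-0.26 and 0.13), nor between Kdm4d and SCNT 2-cell embryos (0.01 and -0.47).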

How the data were processed

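RNA of 14 libraries was sequenced as 50-base single reads, per the labels' protocols. The deposited table gives FPKM values per gene as the authors made them. The submitters' processing notes name Novoalign, Cufflinks 2.0.2 and mm9; the sources used here do not say how these steps were set or how reads with several matches were treated. No counts are used here, so the depth is known only relative to the first IVF 1-cell library, from the steps of low values (0.416 to 1.0), and the precision rests on 2 libraries per group.

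Of 23697 rows, those of the same symbol (710) were summed to 23234 symbols, and 787 rows of short RNAs were kept. Genes at 1 FPKM or more in at least 2 libraries (13693) were fitted with limma 3.58.1 (R 4.3.3) with a trend on log2(FPKM + 1), over all 14 libraries with 7 group means, and p-values of each of 10 comparisons were adjusted by Benjamini and Hochberg. The fit was tested on simulated data in which a gene had the same spread in every group. Such data cannot speak to calls in the Kdm4d and mutant groups, whose replicates spread more. Alternatives were a pseudocount of 0.1, no filter, quantile normalization, equal sums, a fit to the compared groups only, group variances, a replicate block and leaving out each library; leaving out short RNAs, crossed replicate numbers and 2 motifs were added after the values were seen. Same-numbered libraries were not paired: correlations of their deviations ran from -0.119 to 0.148.

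Genes named in each comparison were, by rule, up to 4 called members per direction with the largest differences, no overlap between libraries and an average level from 5 FPKM upwards in either group, the variant subunits, Psme1 and Psme2, and up to 2 partners per direction in 2 of the comparisons; 1 partner that the rule names is not reported here, and further names were chosen after their values were seen. The proteasome genes and all lists were chosen with earlier results of these data known. Promoters are 250 bases before the RefSeq start (GRCm38.p6), and shared sequence was counted over stretches of 50 bases. Proteins were not used here.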

Additional observations from a re-analysis of the deposited data

Results flagged for a closer look

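For 16 of the 47 tested proteasome genes the change from the 1-cell to the 2-cell stage differed between SCNT and IVF embryos by the interaction term of the limma fit, at an adjusted p under the threshold of 0.05, where 27.8% of all tested genes did. The differences are in log2(FPKM + 1), SCNT change minus IVF change. In the alpha ring Psma7 differed by 2.68, Psma6 by 1.51 and Psma5 by 1.22. Among the inducible subunits Psmb10 differed by 2.08 and Psmb9 by 1.43, and of PA28 Psme1 differed by 1.96 and Psme2 by 1.68. With a pseudocount of 0.1 the differences of Psme1 and Psmb9 shrank to 0.24 and 0.38 and were not called. In the base the ATPases Psmc6 and Psmc2 differed by 1.40 and 1.07 and the scaffold subunits Psmd1 and Psmd2 by 0.62 and 0.55. The assembly factor Psmg2 differed by 1.38. Lower changes in SCNT were those of the protease subunit Psmb5 (-1.49), the lid subunits Psmd7 (-1.34) and Psmd8 (-0.90) and the assembly factor Psmd5 (-0.90). The calls nearest the threshold were those of Psmb5 (adjusted p = 0.037), Psmg2 (0.034) and Psmc2 (0.03). That of Psmb5 was lost in 7 of 8 fits without a single library.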

How the results depend on the processing

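Counts of called proteasome genes are given as higher or lower in the first group named. For SCNT against IVF 1-cell embryos the 0 higher genes became 2 with a pseudocount of 0.1, 8 in the fit to the compared groups and 13 with group variances; the 2 lower genes became 1 with quantile normalization, equal sums or the replicate block, 9 in the fit to the compared groups, 8 with group variances and 0 without any single library. For SCNT 2-cell against 1-cell embryos the 18 lower genes became 10 with equal sums. For the difference of stage changes the 12 higher genes became 7 to 10 without single libraries; the 4 lower became 2 without a filter or with quantile normalization, 0 with equal sums, 11 in the fit to the compared groups or with group variances, and 0 to 2 without single libraries. For SCNT against IVF 2-cell embryos the 7 lower genes became 4 with quantile normalization, 3 with equal sums and 4 to 7 without single libraries. For Kdm4d against SCNT embryos the 20 higher genes became 9 with quantile normalization, 7 with equal sums, 11 in the fit to the compared groups, 13 with crossed replicate numbers as a block and 11 to 23 without single libraries; the 6 lower became 15 with equal sums, 3 in the fit to the compared groups. For the mutant against SCNT embryos the 6 higher genes became 2 with equal sums, 0 in the fit to the compared groups or with group variances and 1 to 7 without single libraries; the 3 lower became 1 with a pseudocount of 0.1 or group variances, 5 with quantile normalization, 7 with equal sums, 0 in the fit to the compared groups, 2 with the replicate block or without a filter, and 1 to 7 without single libraries. For Kdm4d against its mutant the 18 higher genes became 0 in the fit to the compared groups, 6 with group variances and 8 to 22 without single libraries; the 7 lower became 12 with equal sums, 0 and 1. For Kdm4d against IVF embryos the 20 higher genes became 13 with quantile normalization, 0 in the fit to the compared groups and 10 to 23 without single libraries; the 1 lower became 0 without a filter, in the fit to the compared groups or with the replicate block, and 0 to 1 without single libraries. Without the rows of short RNAs, the proteasome held 0.726% of all FPKM in IVF 2-cell, 0.627% in SCNT 1-cell, 0.944% in SCNT 2-cell embryos and 1.08% in cumulus cells. In a window of 100 bases TGACNNNGC was in 3 promoters and CCAAT in 9. The fits to the compared groups have fewer libraries to estimate the spread from. Over all tested genes they called 0 higher and 5 lower for Kdm4d against its mutant. For the mutant against SCNT embryos the counts were 3 and 18, and for Kdm4d against IVF embryos 11 and 17. For SCNT against IVF 1-cell embryos they were 1309 and 986. The cause of the other changes was not tested. Of the 86 calls named by rule, 48 were kept under every alternative and 0 reversed; the replicate block ended 4 and otherwise left the named calls in place. Low depth of the Kdm4d and mutant libraries and 2 libraries per group limit what these counts can show.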
